A study of Mus musculus with 6 samples.

Results

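The genes described here encode the protein complexes of the mitochondrial inner membrane that carry electrons to oxygen and make ATP: complexes I to IV of the respiratory chain and ATP synthase, also called complex V. They were chosen by gene symbol (Nduf, Cox4 to Cox8, Atp5, Uqcr, Sdha to Sdhd and Cyc1), without predicted pseudogenes, and 88 such genes were among the 22180 genes tested. Of these, 78 were subunits, 9 were assembly factors and 1, Ndufa4l2, was a paralog of a complex IV subunit. The cells were fibroblast-like synoviocytes, which line the joint and make its fluid and matrix, grown from C57BL6 knee synovium and used between passages 4 and 8. On 3 arrays the cells had received Ad-Epas1, an adenovirus that carries Epas1, and on 3 arrays the empty virus (Mock). Both groups received virus at a multiplicity of infection of 800 for 2 h and were cultured for 24 h before total RNA was taken. The Ad-Epas1 cells made Epas1 from the virus on top of their own gene, and the Mock cells already held Epas1 transcript. The labels call the replicates biological but name no animal or culture for any of them, and the p-values rest on the spread among these arrays, which may be technical.

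Complex I takes electrons from NADH and complex II from succinate, complex III passes them to cytochrome c, and complex IV passes them to oxygen. Complexes I, III and IV pump protons, and ATP synthase uses the gradient to make ATP. Epas1 encodes HIF-2alpha, a transcription factor that oxygen holds in check. In low oxygen, HIF proteins, best described for HIF-1, are known to lower respiration through pyruvate dehydrogenase kinases, an exchange of the complex IV subunit forms encoded by Cox4i1 and Cox4i2, and the Ndufa4 paralog Ndufa4l2.

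Epas1, on the log2 scale of all levels given here, stood at 13.13 ± 0.02 in Ad-Epas1 and at 8.63 ± 0.11 in Mock (SD, n = 3 each), in the direction of the labels. The array medians lay between 6.77 and 6.84. Per the labels, flow cytometry found the cells mostly positive for the fibroblast marker CD90 and nearly free of the macrophage marker CD14. All 15 measured macrophage markers lay above the reference level of 6.62, under which 95% of 1390 olfactory and vomeronasal receptor genes lay, on at least 1 array. The log2 of their summed level was 11.62 on Ad-Epas1 replicate 3, against 15.04 and 15.25 on the other Ad-Epas1 arrays and 15.14 to 15.43 on the Mock arrays. In the fit of all 6 arrays, 4 of the 15 markers fell, Mrc1, C1qa, C1qc and Aif1, where 9.75% of all genes fell. On every Ad-Epas1 array, 8 of 15 lay lower than on any Mock array, against 18.4% of all genes. Cd14, Fcgr1 and Adgre1 lay higher on Ad-Epas1 replicates 1 and 2 than on any Mock array, and lower on replicate 3. Cd14 was at 11.92, 11.40 and 8.62 in Ad-Epas1, against 10.42, 9.99 and 10.14 in Mock. Mrc1, a mannose receptor, was at 7.96, 7.93 and 6.51 in Ad-Epas1, against 10.95, 10.02 and 9.96 in Mock (-2.84, adjusted p = 0.0094). Some macrophage markers thus differed between the groups, and their part in the results on respiratory genes was not tested. The summed level of 10 fibroblast markers was 15.32 to 15.53 in Ad-Epas1 and 15.46 to 15.52 in Mock. Key results are also given without Ad-Epas1 replicate 3. In a culture of mixed cells, fewer cells of a type and less RNA per cell cannot be told apart.

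Most respiratory chain and ATP synthase transcripts differed little between the groups. Of the 88 genes, 2 rose and 9 fell, and the test was not passed by 77 (limma, adjusted p under 0.05), so that 12.5% were called, against 16.3% of all genes tested. The share that rose was 2.27%, against a background of 6.57%, and the share that fell was 10.2%, against 9.75%. Neither share of calls stood far above its background. A change of at least 1.5-fold was reached by 2 of the called genes, Ndufs8 and Cox6a2. The 95% interval of the log2 fold change lay wholly within 1.5-fold in either direction for 78 of the 88 genes (88.6%), against 75.4% of all genes.

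Small differences ran mostly one way. The log2 fold change was below 0 for 71 of the 88 genes, against 41.4% of all genes, and its median was -0.10, against 0.05 for all genes. Part of this gap went with level: of the 11090 genes above the median level, 6100 had a value below 0 (median -0.04), beside 65 of the 78 members there (median -0.11). In a fit of those genes alone, 15 of the 78 members were called (19.2%), against 32.1% of the 11090. All 3 Ad-Epas1 arrays lay below all 3 Mock arrays for 31 of the 88 (35.2%, background 18.4%) and above them for 6 (6.82%, background 21.3%). The median deviation from the Mock mean was -0.15, -0.10 and -0.09 on Ad-Epas1 replicates 1, 2 and 3, against 0.01, -0.01 and 0.01 on Mock replicates 1, 2 and 3. A further quantile normalization of the tested genes brought the number below 0 to 59 and the median to -0.07, against 0.03 for all genes. With that scaling, 1913 of all genes rose and 1731 fell, where 1458 rose and 2162 fell in the deposited values. Without Ad-Epas1 replicate 3, 3 of the 88 rose and 13 fell (18.2%, background 24.3%), and the median was -0.12.

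**Figure D1:**
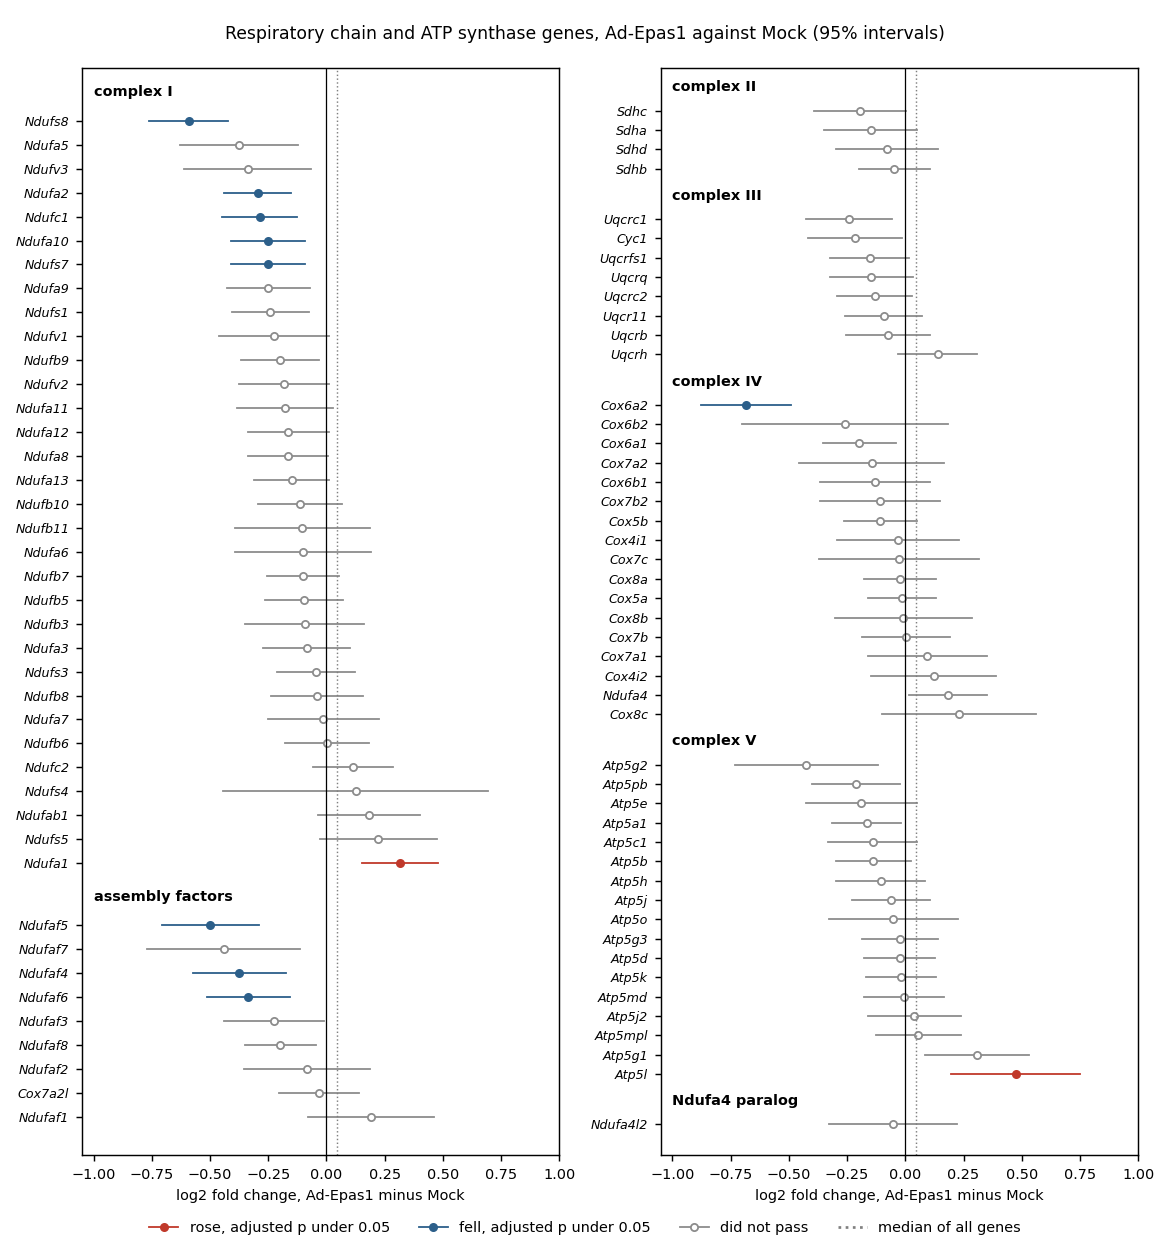
Log2 fold change (Ad-Epas1 minus Mock) of each of the 88 genes with its 95% interval, by complex, with assembly factors and the Ndufa4 paralog apart. Filled points passed the test, and the dotted line marks the median of all 22180 genes at 0.05. Most points lie left of 0, and only Ndufs8 and Cox6a2 lie beyond a 1.5-fold decrease.

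Complex I is the largest of the complexes. Of its 32 measured subunits, 1 rose, 5 fell and 26 did not pass (18.8% called, near the 16.3% of all genes), with a median of -0.13. Ndufs8, a core subunit that carries iron-sulfur clusters on the path to ubiquinone, had log2 levels of 10.02, 9.98 and 10.06 in Ad-Epas1, against 10.70, 10.54 and 10.59 in Mock. The groups lay well apart, and Ndufs8 fell 1.51-fold (log2 fold change -0.59, SE 0.07, adjusted p = 0.0040). Ndufs7, the core subunit that holds the last iron-sulfur cluster before ubiquinone, was at 11.63, 11.55 and 11.59 in Ad-Epas1, against 11.91, 11.80 and 11.82 in Mock. It fell by 0.25 on the log2 scale (SE 0.07, adjusted p = 0.048), just inside the threshold.

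The other core subunits measured did not pass the test, and each had a log2 fold change below 0. Ndufs1, which carries iron-sulfur clusters near the NADH site, had levels of 8.92, 9.01 and 8.86 in Ad-Epas1, against 9.14, 9.18 and 9.20 in Mock, without overlap (-0.24, adjusted p = 0.059). Ndufv1, which binds NADH, stood at 9.99, 9.88 and 10.22 in Ad-Epas1, against 10.28, 10.19 and 10.30 in Mock, so that Ad-Epas1 replicate 3 reached into the Mock range (-0.23, adjusted p = 0.17). Without that array Ndufv1 fell by 0.32 (adjusted p = 0.029). Ndufv2, its partner at the NADH site, differed by -0.18 (adjusted p = 0.17), and Ndufs3, a core subunit of the arm that reaches into the matrix, by -0.05 with an interval from -0.21 to 0.12 (adjusted p = 0.685). The median of the 6 core subunits was -0.23, beside -0.10 for the 26 accessory subunits. A difference between these medians was not tested.

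Among the accessory subunits, which surround the core and are needed for assembly and stability, 3 fell and 1 rose. That was 15.4% called, near the 16.3% of all genes. Ndufa2, a small subunit of the NADH-oxidising end, was at 9.55, 9.52 and 9.49 in Ad-Epas1, against 9.83, 9.81 and 9.80 in Mock (-0.29, SE 0.06, adjusted p = 0.021). Ndufc1, a small subunit of the membrane arm, had levels of 8.74, 8.63 and 8.65 in Ad-Epas1, against 9.01, 8.91 and 8.97 in Mock (-0.29, SE 0.07, adjusted p = 0.033). Each group was tight, and the gap was larger than the spread within it. Ndufa10, which lies beside the membrane arm on the matrix side, stood at 10.52, 10.55 and 10.53 in Ad-Epas1, against 10.85, 10.79 and 10.71 in Mock (-0.25, SE 0.07, adjusted p = 0.047). Ndufa1, a small X-linked membrane subunit, moved the other way, with 9.09, 9.16 and 9.19 in Ad-Epas1, against 8.85, 8.77 and 8.88 in Mock. It rose by 0.32 (SE 0.07, adjusted p = 0.025), and the groups did not overlap. The remaining 22 accessory subunits did not pass. Ndufa5, named after its value was seen, differed by -0.37 (adjusted p = 0.058) and fell by 0.48 without Ad-Epas1 replicate 3 (adjusted p = 0.0063).

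The calls depended on the arrays entered. Only Ndufs8 and Cox6a2 passed with any 1 array left out, with adjusted p up to 0.027 for each. The other 9 called genes all lost their calls without Mock replicate 2, without Mock replicate 3 and without Ad-Epas1 replicate 2, with highest adjusted p from 0.067 for Ndufaf5 to 0.16 for Ndufa10. In these 3 fits the share called among all genes was 5.35%, 5.32% and 6.82%. Of the 11, 5 still passed without Mock replicate 1, 5 without Ad-Epas1 replicate 1, and 9 without Ad-Epas1 replicate 3, where Ndufs7 and Ndufa10 did not pass.

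**Figure D2:**
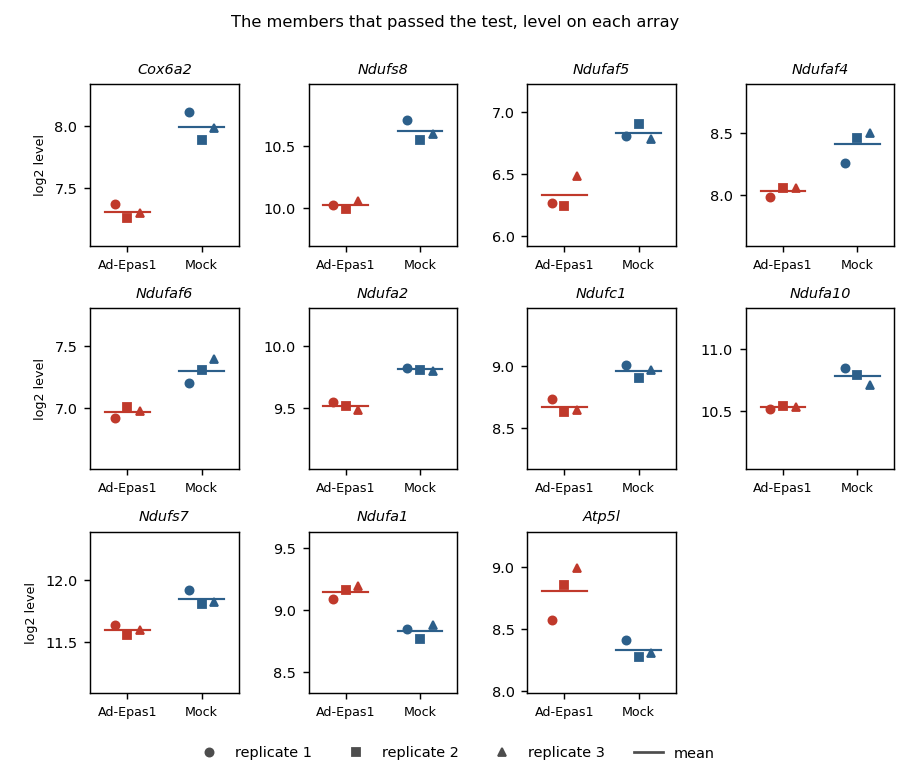
Log2 level on each array for the 11 genes that passed the test, Ad-Epas1 left and Mock right, with symbols for the replicates and lines for the means (n = 3 each). Each panel spans the same range of log2 units around its own centre, and in every panel the groups do not overlap.

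Assembly factors help to build the complexes and are absent from the finished enzymes. Of the 8 measured Ndufaf genes, which act on complex I, 3 fell, none rose and 5 did not pass (37.5% called, against 16.3% of all genes), and 7 of 8 had a log2 fold change below 0 (median -0.28). Ndufaf5, whose human product hydroxylates NDUFS7, had levels of 6.27, 6.24 and 6.48 in Ad-Epas1, against 6.80, 6.90 and 6.78 in Mock. It fell 1.41-fold (-0.50, SE 0.09, adjusted p = 0.013), and since its Ad-Epas1 levels lay below the reference of 6.62 the size of this fall is not exact. Ndufaf4, which acts early in complex I assembly, stood at 7.99, 8.06 and 8.05 in Ad-Epas1, against 8.26, 8.46 and 8.50 in Mock (-0.37, SE 0.08, adjusted p = 0.028). Ndufaf6, another early factor, was at 6.92, 7.01 and 6.97 in Ad-Epas1, against 7.20, 7.31 and 7.39 in Mock (-0.33, SE 0.08, adjusted p = 0.029). In all 3 genes the highest Ad-Epas1 array was below the lowest Mock array. Ndufaf7, a methyltransferase named after its value was seen, overlapped between groups (-0.44, adjusted p = 0.076) and fell by 0.55 without Ad-Epas1 replicate 3 (adjusted p = 0.023). Ndufaf1, also named afterwards, was the one with a positive value (0.19, adjusted p = 0.29). Cox7a2l, counted here with the assembly factors for its link to supercomplexes, differed by -0.03 with an interval from -0.20 to 0.14.

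No subunit of complex II or III passed the test (limma; at an unadjusted p under 0.05 there were 0 of 4 in complex II and 2 of 8 in complex III, Uqcrc1 and Cyc1), against 16.3% called among all genes. Sdha, the subunit that oxidises succinate, had levels of 10.66, 10.77 and 10.88 in Ad-Epas1, against 10.86, 11.01 and 10.89 in Mock (-0.15, interval -0.35 to 0.05). Sdhb, the iron-sulfur subunit, differed by -0.05 (interval -0.20 to 0.11), and the membrane anchors Sdhc by -0.19 (adjusted p = 0.16) and Sdhd by -0.08 (adjusted p = 0.60). The groups overlapped for Sdha, Sdhb and Sdhd and not for Sdhc. In complex III, Uqcrc1, a core protein on the matrix side, was at 10.88, 10.78 and 10.69 in Ad-Epas1, against 11.08, 10.96 and 11.04 in Mock (-0.24, adjusted p = 0.081). Cyc1, cytochrome c1, stood at 9.94, 9.75 and 9.69 in Ad-Epas1, against 10.04, 10.00 and 9.99 in Mock (-0.22, adjusted p = 0.13), and Uqcrfs1, the Rieske iron-sulfur protein, differed by -0.15 (adjusted p = 0.19). All Ad-Epas1 arrays lay below all Mock arrays for 5 of the 8 complex III genes (62.5%, background 18.4%). They lay above them for 1, Uqcrh, named after its value was seen (12.5%, background 21.3%). The complex III median was -0.14 (-0.06 after the further quantile step), and every interval in complexes II and III lay within 1.5-fold.

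**Figure D3:**
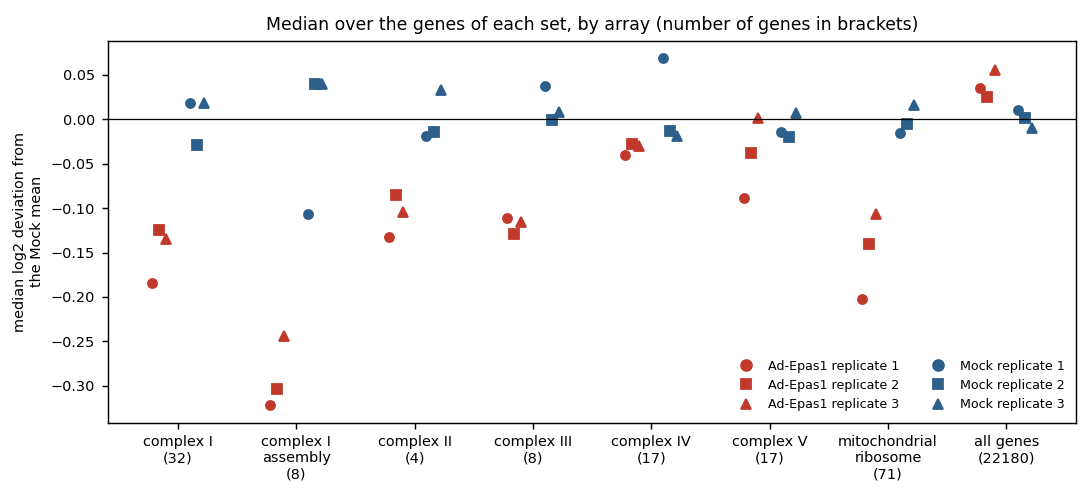
Median log2 deviation from the Mock mean over the genes of each set, one point per array, Ad-Epas1 left of Mock within each set. The 3 Ad-Epas1 points lie below the 3 Mock points for complexes I, II, III and, narrowly, IV, the complex I assembly factors and the mitochondrial ribosomal proteins. For complex V, Ad-Epas1 replicate 3 lies among the Mock points at 0.00, and over all genes the Ad-Epas1 points lie slightly above 0.

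Complex IV had 17 measured subunit genes, 10 common forms and 7 tissue forms. Only Cox6a2 passed (5.88% called, against 16.3% of all genes, median -0.03). Cox6a2, the form of subunit VIa found in heart and skeletal muscle, had levels of 7.37, 7.26 and 7.30 in Ad-Epas1, against 8.11, 7.89 and 7.98 in Mock. It fell 1.61-fold (-0.68, SE 0.08, adjusted p = 0.0040), the largest change among the 88 genes, and was at -0.68 also without Ad-Epas1 replicate 3. None of 10 skeletal muscle markers passed the test, and the log2 of their summed level was 10.24 to 10.28 in Ad-Epas1 and 10.07 to 10.18 in Mock. Of the 10, 3 lay below the reference of 6.62 on every array. The median of the 10 was 6.82 to 7.08 over the arrays, close to that reference. Any part of muscle cells in the fall of Cox6a2 was not tested. Cox6a1, its widely expressed counterpart, differed by -0.20 (adjusted p = 0.090), with 12.69, 12.67 and 12.58 in Ad-Epas1, against 12.86, 12.81 and 12.86 in Mock.

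The forms linked to low oxygen did not pass. Cox4i2, the form of subunit IV that HIF-1 induces in human cells, was well above the reference level, at 10.35, 10.32 and 10.67 in Ad-Epas1, against 10.41, 10.23 and 10.33 in Mock (0.12, interval -0.15 to 0.39, adjusted p = 0.49). Cox4i1, its common counterpart, differed by -0.03 (interval -0.29 to 0.23). Ndufa4l2 stood at 10.77, 10.92 and 11.20 in Ad-Epas1, against 11.04, 10.98 and 11.01 in Mock (-0.05, interval -0.33 to 0.22, adjusted p = 0.78). These intervals reach at most 0.39 on the log2 scale upward, and the groups overlapped for all 3 genes. Ndufa4, once counted in complex I and now placed in complex IV, was at 10.06, 10.08 and 9.96 in Ad-Epas1, against 9.80, 9.84 and 9.92 in Mock, without overlap (0.18, adjusted p = 0.13).

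Ad-Epas1 replicate 3, the array low in macrophage transcripts, stood apart for some tissue forms. Cox6b2, a form best known from testis, had 6.98, 7.03 and 7.69 in Ad-Epas1, against 7.56, 7.48 and 7.43 in Mock, so that replicate 3 was the highest of all arrays (-0.26, adjusted p = 0.38). Without it Cox6b2 fell by 0.48 (adjusted p = 0.0054). The part of the macrophage transcripts in this difference was not tested. Cox7b2, Cox8b and Cox8c lay below the reference level of 6.62 on every array, so that their differences (-0.11, -0.01 and 0.23) carry little information. The muscle form Cox7a1 differed by 0.09, and the common forms Cox6b1 by -0.13, Cox7a2 by -0.14, Cox7b by 0.00 and Cox8a by -0.02, with adjusted p from 0.40 to 0.98.

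In ATP synthase, there was 1 rise and no fall among 17 measured subunit genes, and 16 did not pass. That was 5.88% called, against 16.3% of all genes, with a median of -0.05. Atp5l, which encodes subunit g, a membrane subunit associated with the pairing of ATP synthases, had levels of 8.57, 8.85 and 8.99 in Ad-Epas1, against 8.41, 8.28 and 8.31 in Mock. It rose 1.39-fold (0.47, SE 0.12, adjusted p = 0.038) and was at 0.38 without Ad-Epas1 replicate 3 (adjusted p = 0.042). The catalytic and structural subunits of the F1 head, Atp5a1, Atp5b, Atp5c1, Atp5d and Atp5e, named as the whole head after their values were seen, differed by -0.19 to -0.02 and none passed.

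The c subunit, which forms the rotating ring, is encoded by Atp5g1, Atp5g2 and Atp5g3, whose mature proteins are the same. Atp5g1 was at 7.59, 7.70 and 7.51 in Ad-Epas1, against 7.35, 7.14 and 7.39 in Mock (0.31, adjusted p = 0.069). Atp5g2 was at 11.25, 11.40 and 11.75 in Ad-Epas1, against 11.92, 11.85 and 11.90 in Mock (-0.42, adjusted p = 0.069). Atp5g3 was at 9.20, 9.25 and 9.27 in Ad-Epas1, against 9.35, 9.23 and 9.22 in Mock (-0.02, adjusted p = 0.83). Neither group overlapped the other for Atp5g1, higher in Ad-Epas1, or Atp5g2, lower in Ad-Epas1. Without Ad-Epas1 replicate 3, Atp5g1 rose by 0.35 (adjusted p = 0.045) and Atp5g2 fell by 0.57 (adjusted p = 0.0035). With Atp5l and Atp5e, which fell by 0.28 (adjusted p = 0.039), that made 2 rises and 2 falls in ATP synthase. In that fit 23.5% of the ATP synthase genes were called, near the 24.3% of all genes, and their median was -0.10. Genes of this kind have many processed pseudogenes, and how far copies share probes is not known here. Dimmer probe sets gave -0.41 for Atp5g2 (adjusted p = 0.061), but 0.06 for Atp5e and -0.29 for Atp5d, unlike the -0.19 and -0.02 of the probe sets used.

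**Figure D4:**
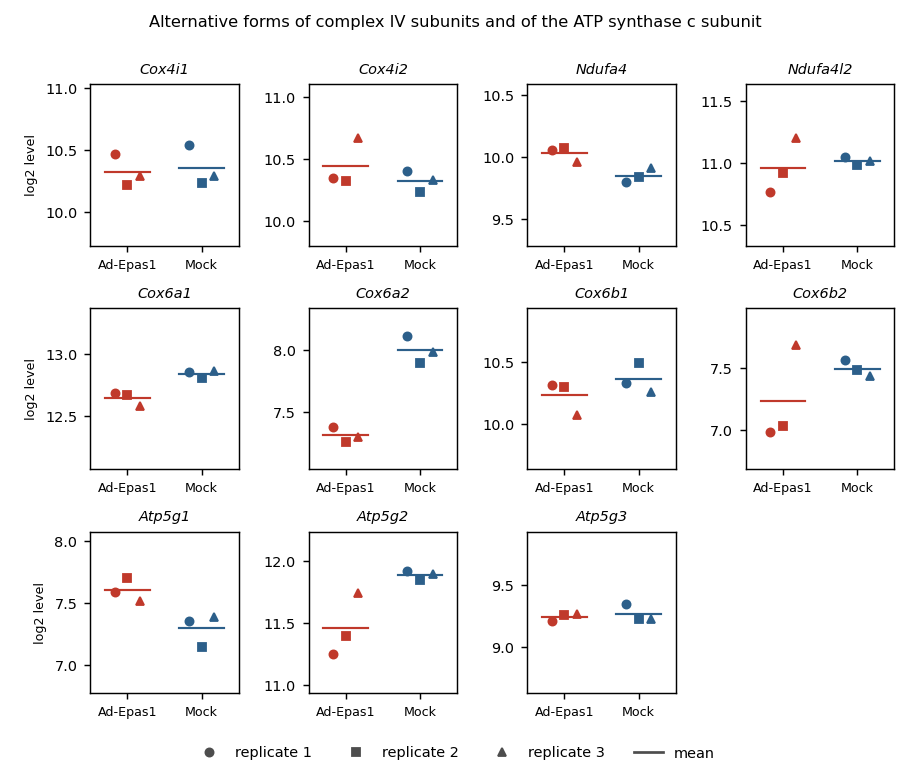
Log2 level on each array for alternative forms of complex IV subunits, Ndufa4 with its paralog, and the c subunit genes of ATP synthase, Ad-Epas1 left and Mock right (lines are means, n = 3 each). The groups separate for Cox6a2, Cox6a1, Ndufa4, Atp5g1 and Atp5g2, and overlap for Cox4i1, Cox4i2 and Ndufa4l2. Ad-Epas1 replicate 3 stands highest in its group for Cox4i2, Ndufa4l2, Cox6b2, Atp5g2 and Atp5g3.

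Promoters of the called genes were read to see which known motifs of respiratory genes they hold. RefSeq windows of build GRCm38.p6, with 250 bases before the annotated start, were matched for 72 of the 88 genes. The windows of the 2 largest falls that had one and of both rises are shown. Capitals mark matches on either strand to the HIF core (ACGTG or GCGTG), to CCGGAAG, a motif of ETS factors such as GABP, and to GCGCATGC, from the site of nuclear respiratory factor 1. The ACGTG core also lies within CACGTG, bound by other factors, as in the Atp5l window.
Ndufs8 (chr19:3912775-3913024, strand minus): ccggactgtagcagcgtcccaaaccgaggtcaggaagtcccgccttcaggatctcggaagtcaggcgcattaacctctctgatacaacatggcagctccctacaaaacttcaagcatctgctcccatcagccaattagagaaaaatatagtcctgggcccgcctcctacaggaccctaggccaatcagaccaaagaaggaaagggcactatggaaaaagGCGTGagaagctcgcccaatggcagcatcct
Ndufaf5 (chr2:140170396-140170645, strand plus): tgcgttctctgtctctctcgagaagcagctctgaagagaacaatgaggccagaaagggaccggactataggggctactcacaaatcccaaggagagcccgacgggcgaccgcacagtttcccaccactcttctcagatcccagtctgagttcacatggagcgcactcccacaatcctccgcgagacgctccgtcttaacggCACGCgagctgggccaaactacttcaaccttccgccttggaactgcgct
Atp5l (chr9:44920743-44920992, strand minus): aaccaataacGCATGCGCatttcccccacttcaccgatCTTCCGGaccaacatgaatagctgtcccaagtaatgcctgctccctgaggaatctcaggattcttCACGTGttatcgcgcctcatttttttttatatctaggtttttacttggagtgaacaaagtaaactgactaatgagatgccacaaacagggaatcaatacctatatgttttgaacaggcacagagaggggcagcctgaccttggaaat
Ndufa1 (chrX:37191239-37191488, strand minus): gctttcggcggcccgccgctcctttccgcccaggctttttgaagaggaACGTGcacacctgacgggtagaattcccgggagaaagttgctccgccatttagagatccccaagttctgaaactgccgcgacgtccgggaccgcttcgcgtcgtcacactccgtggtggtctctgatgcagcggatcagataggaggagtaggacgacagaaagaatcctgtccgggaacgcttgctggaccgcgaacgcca
An ACGTG was present in both windows of genes that rose and in none of 6 windows of genes that fell, against 18.1% of 16990 windows over all tested genes. A GCGTG was present in 2 of those 6, against 34.2% of all windows. Over the 72 windows, GCGCATGC occurred in 12.5%, against 3.13% of all windows, and CCGGAAG in 18.1%, against 9.06%. Either HIF core occurred in 55.6% of the 72 windows, against 44.6% of all. These are counts of letters and show no binding.

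Larger changes were measured in other genes of mitochondrial energy metabolism. Of 13 measured citric acid cycle genes, 6 fell and none rose (46.2% called, against 16.3% of all genes, median -0.25), and without Ad-Epas1 replicate 3, 7 fell (53.8%, background 24.3%). Idh2, the NADP-dependent isocitrate dehydrogenase, had levels of 8.73, 8.85 and 9.40 in Ad-Epas1, against 10.18, 10.47 and 10.44 in Mock, and fell 2.58-fold (-1.37, SE 0.18, adjusted p = 0.0055). Suclg2, a subunit of succinyl-CoA ligase, fell by 0.68 (adjusted p = 0.017) and Idh3a, the catalytic subunit of the NAD-dependent isocitrate dehydrogenase, by 0.60 (adjusted p = 0.0097). The others that fell were Cs, Idh3b and Idh3g, named after their values were seen. Idh2 passed with any 1 array left out. The calls of Suclg2 and Idh3a ended when Mock replicate 2 or 3 was left out, and that of Suclg2 also without Ad-Epas1 replicate 2, with adjusted p up to 0.076 for Suclg2 and 0.053 for Idh3a.

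Among 20 measured electron carriers and ubiquinone synthesis genes, 4 fell and none rose (20% called, against 16.3% of all genes, median -0.10). After the further quantile step the median was -0.01, with 10 of 20 below 0. Without Ad-Epas1 replicate 3, 4 fell and Coq3, singled out afterwards, rose (0.43, adjusted p = 0.011). That was 25.0% called, near the 24.3% of all genes. Etfb, a subunit of the flavoprotein that feeds electrons from fatty acid oxidation into the chain, had 9.29, 9.37 and 9.66 in Ad-Epas1, against 10.20, 10.44 and 10.42 in Mock, and fell 1.89-fold (-0.91, SE 0.12, adjusted p = 0.0054). Coq5, a methyltransferase of ubiquinone synthesis, fell by 0.49 (adjusted p = 0.0070), and Gpd2, which feeds electrons from glycerol 3-phosphate, by 0.50 (adjusted p = 0.018). Dhodh, an enzyme of pyrimidine synthesis which was singled out afterwards, also fell, by 0.34. Leaving out any Mock array or Ad-Epas1 replicate 2 ended the call of Gpd2, with adjusted p up to 0.075. Of 35 measured assembly factors with other symbols, 5 fell, 1 rose and 29 did not pass (17.1% called, near the 16.3% of all genes, median -0.22). Sdhaf3, which acts on the iron-sulfur subunit of complex II, fell by 0.71 (SE 0.10, adjusted p = 0.0071), while the complex II subunits themselves did not pass. Cox10, which makes the heme of complex IV, fell by 0.42 (adjusted p = 0.012), and Tmem126b, a complex I factor, by 0.48 (adjusted p = 0.017). Leaving out Mock replicate 2 or Ad-Epas1 replicate 2 ended the call of Cox10 (adjusted p up to 0.065), and these or Mock replicate 3 or Ad-Epas1 replicate 1 that of Tmem126b (up to 0.079). The other calls, named after their values were seen, were falls of Bcs1l, which inserts the Rieske protein into complex III (-1.02, adjusted p = 0.017), and Cox20, and a rise of Atpaf2, a factor of the ATP synthase head. Without Ad-Epas1 replicate 3, 11 of the 35 fell and 1 rose (34.3% called, against 24.3% of all genes), and the median was -0.12 after the further quantile step.

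Regulators moved in both directions. Of 15 measured regulators of mitochondrial biogenesis, 3 rose and 3 fell (40.0% called, against 16.3% of all genes). Their median was -0.03, and 0.00 after the further quantile step. Nrf1, nuclear respiratory factor 1, had levels of 8.66, 8.76 and 8.60 in Ad-Epas1, against 8.25, 8.31 and 8.23 in Mock, and rose by 0.41 (SE 0.07, adjusted p = 0.013). Gabpb1, a subunit of the ETS factor GABP, rose by 0.41 (adjusted p = 0.019), and the third was Gabpa, its DNA-binding partner, named after its value was seen (0.26, adjusted p = 0.043). Tfb1m, which modifies mitochondrial ribosomal RNA, fell by 0.73 (adjusted p = 0.026), as did Pprc1 and Ssbp1, named after their values were seen. With Mock replicate 2 or 3 or Ad-Epas1 replicate 2 left out, the calls of Nrf1, Gabpb1 and Tfb1m ended, those of Gabpb1 and Tfb1m also without Ad-Epas1 replicate 1, and that of Tfb1m without Mock replicate 1 (adjusted p up to 0.101). Without Ad-Epas1 replicate 3, 2 of the 15 rose and 2 fell (26.7% called, against 24.3% of all genes), the median was 0.02, and Tfb1m was at -0.91. Gabpa and Ssbp1 did not pass in that fit (adjusted p = 0.060 and 0.059).

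Of 14 measured regulators of respiration linked to oxygen, 2 rose and 4 fell (42.9% called, against 16.3% of all genes, median -0.23). Mxi1, an antagonist of MYC, had levels of 10.28, 10.31 and 9.91 in Ad-Epas1, against 9.53, 9.02 and 9.13 in Mock, and rose 1.92-fold (0.94, SE 0.16, adjusted p = 0.013). The other that rose was Bnip3, a mitophagy receptor named after its value was seen (0.58, adjusted p = 0.035). Atpif1, the inhibitor of ATP hydrolysis by ATP synthase, fell by 0.52 (SE 0.08, adjusted p = 0.0085), and Slc25a5, an ADP/ATP carrier, by 0.35 (adjusted p = 0.034), while Iscu and Slc25a4, which also fell, were named after their values were seen. With Mock replicate 2 or 3 or Ad-Epas1 replicate 2 left out, Mxi1 and Slc25a5 did not pass, and Slc25a5 did not pass without Mock replicate 1 or Ad-Epas1 replicate 1 either. Their highest adjusted p was 0.064 for Mxi1 and 0.12 for Slc25a5. The genes next named were chosen after their values were seen. Pdk1, the pyruvate dehydrogenase kinase that HIF-1 induces, differed by 0.04 (interval -0.21 to 0.29). The related kinase genes lay below 0, Pdk2 at -0.55 (adjusted p = 0.0504), Pdk3 at -0.30 (adjusted p = 0.16) and Pdk4 at -0.45 (adjusted p = 0.13). Without Ad-Epas1 replicate 3, Pdk2 fell by 0.72 (adjusted p = 0.00089) and Pdk4 by 0.65 (adjusted p = 0.0068). Lonp1, the protease that degrades the Cox4i1 product, differed by 0.42 (adjusted p = 0.061). Without Ad-Epas1 replicate 3 the list had 3 rises and 7 falls (71.4% called, against 24.3% of all genes), among the rises Lonp1 (0.51, adjusted p = 0.024).

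General markers of mitochondria differed little. Of 13 measured genes of the outer membrane, protein import and chaperones, 1 fell and none rose (7.69% called, against 16.3% of all genes). Their median was 0.00 (-0.03 after the further quantile step). The one that fell was the chaperonin gene Hspd1, at 9.72, 9.92 and 9.69 in Ad-Epas1, against 10.34, 10.20 and 10.26 in Mock (-0.49, adjusted p = 0.013, and 0.062 without Mock replicate 3). Phb2 (-0.21, adjusted p = 0.068), a prohibitin, and Tomm40 (-0.25, adjusted p = 0.084), the import pore, did not pass. None of 4 measured uncoupling proteins and related carriers passed (limma, 0 at an unadjusted p under 0.05), with values from -0.14 for Slc25a27 to 0.16 for Ucp1. Ucp1 and Ucp3 lay below the reference of 6.62. For comparison, 13 of 71 genes of the mitochondrial ribosome fell and none rose (18.3% called, near the 16.3% of all genes). Their median was -0.16, and 56 of the 71 had a value below 0. This leaning below 0 in 78.9% of the ribosome genes stood beside 80.7% in the 88 respiratory chain and ATP synthase genes. The further quantile step brought the ribosome's median to -0.06.

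**Figure D5:**
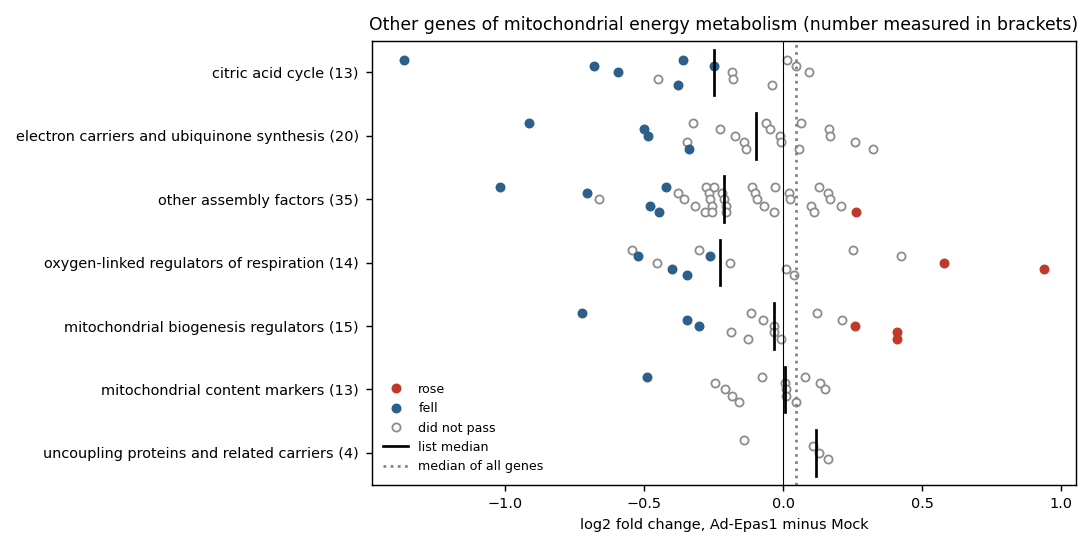
Log2 fold change (Ad-Epas1 minus Mock) of every measured gene in 7 lists of mitochondrial energy metabolism. Filled points passed the test, black bars are list medians and the dotted line is the median of all genes at 0.05. The citric acid cycle holds the lowest value, that of Idh2 at -1.37, and the oxygen-linked regulators the highest, that of Mxi1 at 0.94.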

How the data were processed

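Total RNA (300 ng per array, per the labels) was measured on 6 Affymetrix arrays. The authors deposited 1 log2 value for each probe set on each array. The submitters' processing notes name RMA and version 1.3.1 of Affymetrix's Expression Console. Its quantile step hides a change shared by most genes, and probe summaries compress large changes. Arrays have no read depth, so the number of arrays sets the precision, and for 1 gene a two-sided exact permutation test of 3 against 3 could not give less than p = 0.1.

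Of 41345 probe sets, 23521 had 1 gene symbol, 1814 had several and 16010 none. A RefSeq table (GRCm38.p6) held 23328 of their Entrez identifiers and changed 0 symbols. The brightest probe set stood for each gene (22180 genes, no filter on level). Another 10 probe sets hold a matching symbol among several genes and were not used, and 0 columns came from other samples. No chain gene of the mitochondrial genome is analysed here.

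The groups were compared with limma 3.58.1 (lmFit and eBayes, R 4.3.3). Two-sided p-values were adjusted by Benjamini-Hochberg over the 22180 genes, and 0.05 was the threshold. Samples were grouped by title. The code was tested on simulated data. Groups of genes are described by counts and medians, with no test. The members and lists were chosen with earlier results of these data known. The text names every called member, the 3 smallest p per complex and list, complex II, core complex I subunits, alternative forms and Epas1. Other names are marked, except those of cell type markers. Alternatives were a replicate block, 1 array left out, other scalings, a level filter, another variance prior, array weights and other uses of probe sets.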

Additional observations from a re-analysis of the deposited data

How the results depend on the processing

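Deviations from the group means correlated by 0.34, -0.19 and 0.21 between arrays numbered 1, 2 and 3; not every pair deviated together, so the numbers were not taken as pairs. With the replicate number as a block, 6 members passed (6.82%, against 14.0% of all genes), all lower in Ad-Epas1. Of these 6, 3 were in complex I and 0 in complex V, and 4 of the 11 reported calls were among them. With array weights, 7791 of all genes passed (35.1%) and 30 members (34.1%). Among these members were 14 subunits in complex I, 2 in complex III, 4 in complex IV, 4 in complex V and 6 complex I assembly factors. From the pathway lists, 59 genes passed. Complex IV had 2 calls after the further quantile step, above the median level and with the trended robust prior, and complex V had 2 after the first and second of these. With 1 array left out, the count ranged from 1181 to 5390 for all genes, from 2 to 16 for members, from 1 to 6 for complex I, from 1 to 2 for complex IV, from 0 to 4 for complex V, from 0 to 4 for complex I assembly factors and from 6 to 39 for the pathway lists. As shares, these were 5.32% to 24.3% of all genes and 2.27% to 18.2% of members. The causes were not tested. No called value changed sign under any alternative run. For the 62 genes chosen by the naming rule, 745 values kept their side of the threshold, 90 lost a call and 24 gained one. The members' median lay between -0.12 and -0.07 in each of these settings (over 78 members with the level filter, 88 otherwise). Low signal limits Cox7b2, Cox8b, Cox8c and the Ad-Epas1 level of Ndufaf5, which lay near or below the level of receptor genes not expected in these cells. The same holds for Ndufs5, named after its value was seen, which lay below the reference of 6.62 on every array. Atp5j2 and Ndufb11, also named afterwards, lay below it on 2 arrays and on 1 array.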
